A study of Homo sapiens with 18 samples.

Results

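The HNRNP and SRSF genes encode the RNA-binding proteins that decide, together with the spliceosome, which exons of a transcript are kept. Their expression was followed after siRNA knockdown of BLM, a RecQ-family DNA helicase that unwinds recombination intermediates and whose loss causes Bloom syndrome. Genes were taken by name (symbols that begin with HNRNP, or with SRSF and a number), which matched 42 of the 27968 genes in the files. After 4 pseudogenes were left out, 38 genes remained. Of these, 34 reached 1 CPM (read counts scaled to the size of the library) in at least 3 libraries of A549 (22 HNRNP and 12 SRSF genes) and 33 did so in MDA-MB-231 (22 HNRNP and 11 SRSF genes). These members also reached that level in every library of their line. HNRNPCL1, HNRNPCL2, HNRNPCL3 and HNRNPCL4, copies of HNRNPC, stayed under it in all 18 libraries, and SRSF12 did so in MDA-MB-231. The SRSF12 row therefore counts for A549 alone.

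The groups, of 3 libraries each, were A549 cells with BLM siRNA1, siRNA2 or siRNA3, A549 cells with a control siRNA, MDA-MB-231 cells with BLM siRNA1, and MDA-MB-231 cells with a control siRNA. A549 cells come from a lung cancer and MDA-MB-231 cells from a breast cancer. All cells were grown in DMEM with fetal bovine serum, total RNA was depleted of ribosomal RNA, and stranded libraries were sequenced. The labels describe both flat and 3D cultures without saying which library came from which. They do not say either whether the replicates of a group were grown apart, so the p-values rest on a spread that may be technical. That siRNA1 is the same molecule in both lines is taken from its shared name. Differences between siRNA1, siRNA2 and siRNA3 can come from the extent of knockdown or from other targets of each siRNA, and these cannot be told apart with 1 control siRNA. Because RNA was extracted from whole cultures, fewer cells of a kind and less RNA per cell cannot be told apart either.

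The libraries held 30143047 to 40328208 expected counts. BLM itself was left at 1.51% of its control level in A549 with siRNA1, 13.6% with siRNA2 and 8.30% with siRNA3, and at 14.7% in MDA-MB-231 with siRNA1. Markers of cell types were read in the control libraries as a description and do not test the identity of the lines. All 5 alveolar type 2 markers were under 1 TPM in A549 control libraries, and ESR1 and PGR of the 4 luminal breast markers were under 1 TPM in MDA-MB-231 control libraries. Of the 5 epithelial markers, KRT8, KRT18 and CDH1 were higher in A549 than in MDA-MB-231 control libraries (log2 differences of 2.12, 2.59 and 3.45 in a joint fit), while EPCAM and KRT19 were lower (-2.51 and -3.07). Of the 3 mesenchymal markers, CDH2 was higher (6.95) and VIM and ZEB1 were lower (-1.51 and -1.50). The summed TPM of 10 cell division genes, a list chosen to describe the state of the cultures, was 87.7 to 92.5 with siRNA1, 1190 to 1230 with siRNA2 and 847 to 1060 with siRNA3 in A549, against 1840 to 1980 in control libraries. In MDA-MB-231 it was 645 to 702 with siRNA1, against 2000 to 2040 in control libraries. Its part in the results below was not tested. Replicate 3 of A549 siRNA3 stood apart from the other libraries, with a standard deviation of 0.252 of its log2 deviations from its group, against 0.0864 to 0.166 in the other 17 libraries. Its deviations ran against transcript length (Spearman's rho across genes -0.70, a description). Replicates 1 and 2, whose deviations are taken from the same group mean, had 0.603 and 0.523, and the other 15 libraries had -0.461 to 0.293. The part of this in the siRNA3 results was not tested, and without replicate 3 the siRNA3 counts were the same (22 members lower and 2 higher, 6 longer and 2 shorter). The members that rose were not the same, since SRSF9 lost its call (log2 fold change 0.14) and HNRNPH2 gained one (0.23).

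As background, most hnRNP proteins bind nascent transcripts soon after they are made, and many of them silence nearby splice sites. SR proteins, encoded by the SRSF genes, carry an arginine and serine-rich tail, bind exonic enhancers and recruit the spliceosome, and are moved in and out of speckles by kinases of the SRPK and CLK families. Both families are abundant in dividing cells, and many members hold down their own level by splicing a poison exon into their transcripts, which are then destroyed by nonsense-mediated decay.

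Promoter sequences are shown for 4 members. They show the sequence just upstream of 3 genes that fell with siRNA1 in A549 and of SRSF5, which did not. They are the 250 bases before the start in RefSeq (GRCh38.p14), written 5′ to 3′ on the strand of the gene, with motifs in capitals: CCAAT (or ATTGG on the other strand, the box bound by NF-Y), GGGCGG (the GC box bound by SP1) and CCGGAAG (or CTTCCGG, bound by ETS factors). HNRNPA2B1 lies at chr7:26200747-26200996 on the minus strand, SRSF3 at chr6:36594112-36594361 on the plus strand, HNRNPD at chr4:82373992-82374241 on the minus strand and SRSF5 at chr14:69766892-69767141 on the plus strand. The first 3 fell furthest with siRNA1 in A549 among the members with a single RefSeq start, but SRSF3 did not fall in MDA-MB-231. SRSF5 was chosen because it did not fall in any comparison with control.
HNRNPA2B1: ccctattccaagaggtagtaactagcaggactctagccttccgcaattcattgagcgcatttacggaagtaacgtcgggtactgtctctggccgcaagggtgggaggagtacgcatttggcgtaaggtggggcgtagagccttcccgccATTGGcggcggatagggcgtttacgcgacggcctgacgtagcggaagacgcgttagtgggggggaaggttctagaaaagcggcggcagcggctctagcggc
SRSF3: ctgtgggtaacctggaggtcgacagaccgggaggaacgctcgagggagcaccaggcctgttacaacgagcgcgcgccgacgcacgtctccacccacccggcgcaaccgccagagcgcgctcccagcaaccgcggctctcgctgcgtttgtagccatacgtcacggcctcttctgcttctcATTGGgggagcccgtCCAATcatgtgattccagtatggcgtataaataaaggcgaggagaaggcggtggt
HNRNPD: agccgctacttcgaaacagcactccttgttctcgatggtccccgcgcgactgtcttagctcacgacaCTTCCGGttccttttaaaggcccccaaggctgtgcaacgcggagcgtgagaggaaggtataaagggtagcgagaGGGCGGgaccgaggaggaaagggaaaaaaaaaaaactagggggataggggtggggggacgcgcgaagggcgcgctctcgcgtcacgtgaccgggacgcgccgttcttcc
SRSF5: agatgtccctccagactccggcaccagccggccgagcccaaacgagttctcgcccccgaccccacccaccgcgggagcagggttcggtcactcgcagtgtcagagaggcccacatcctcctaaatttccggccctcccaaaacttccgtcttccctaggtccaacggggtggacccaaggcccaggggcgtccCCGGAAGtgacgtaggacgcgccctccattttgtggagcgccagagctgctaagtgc

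Of the 34 A549 members, 32 had an entry among these RefSeq promoters, and HNRNPA1 and SRSF2 had none. The members that fell with siRNA1 in A549 had 41 windows, of which 19 (46.3%) held CCAAT, 26 (63.4%) GGGCGG, 4 (9.76%) CCGGAAG, 3 (7.32%) one of the E2F sites TTTCCCGC, TTTGGCGC or TTTCGCGC, and 3 (7.32%) the cell cycle homology element TTTGAA, read on both strands. Over all 35116 windows of the same length the shares were 32%, 42.6%, 8.52%, 2.32% and 13.3% in the same order. A gene with several RefSeq starts has a window for each, and the 35116 windows were not limited to genes expressed here. These are matches of letters and describe no binding.

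In TPM, which allows comparison between genes because it is scaled to transcript length, both control groups had the same 4 leading members in the same order. HNRNPA1 and HNRNPA2B1, which block splice sites by coating exons and introns, averaged 1380 ± 67.6 and 1100 ± 38.4 TPM in A549 control libraries, and 1210 ± 28.8 and 785 ± 42.4 TPM in MDA-MB-231 control libraries (SD, n = 3). HNRNPK, which binds cytosine-rich RNA and DNA, had 659 ± 13.6 and 612 ± 21.3 TPM, and HNRNPC, which binds uridine tracts and keeps Alu sequences out of exons, had 620 ± 18.8 and 567 ± 20.9 TPM in A549 and MDA-MB-231 control libraries. These 4 levels did not overlap with their neighbours in rank in either line. Between rank 7 (HNRNPAB, 346 ± 11.5 TPM) and rank 13 (HNRNPA3, 297 ± 14.4 TPM) in A549 control libraries each member's range overlapped the next, so neighbours in the run HNRNPAB, HNRNPF, SRSF2, HNRNPUL1, SRSF9, HNRNPD and HNRNPA3 could not be ordered. The most abundant SRSF genes were SRSF2 (329 ± 4.76 TPM) and SRSF9 (320 ± 10.6 TPM) in A549 control libraries, and SRSF9 (416 ± 28.5 TPM) in MDA-MB-231 control libraries. At the other end stood SRSF8, a retrogene copy of SRSF2, with 11.0 ± 0.541 TPM in A549 and 17.3 ± 1.5 TPM in MDA-MB-231 control libraries, and SRSF12, with 2.43 ± 0.0854 and 0.02 ± 0.02 TPM.

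Knockdown with siRNA1 lowered nearly the whole set in A549. Of the 34 members, 30 fell, SRSF8 rose and HNRNPH2, SRSF5 and SRSF12 were not called (edgeR quasi-likelihood test, Benjamini-Hochberg adjusted p under 0.05 over all genes). The background was wide, since 71.7% of the 15898 genes tested were called, 32.8% of them lower and 39.0% higher. The median log2 fold change of the members was -0.85, against 0.09 over all genes, and 28 members were both called and changed by at least 0.5 on the log2 scale, as were 55.1% of all genes. The count of 30 was the same without any 1 of the 12 A549 libraries, whereas the call on SRSF8 (log2 fold change 0.22 ± 0.09, adjusted p = 0.0489) was lost in 9 of those 12 fits.

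The other siRNAs lowered fewer members and by less. With siRNA2, 23 of 34 members fell and 2 rose, where 60.9% of all genes were called (28.4% lower, 32.5% higher) and the medians were -0.34 for members and 0.04 for all genes. With siRNA3, 22 fell and 2 rose, where 61.3% of all genes were called (30.4% lower, 30.9% higher) and the medians were -0.30 and 0.00. In MDA-MB-231, siRNA1 lowered 23 of 33 members and raised 4, where 55.3% of all genes were called (27.8% lower, 27.5% higher) and the medians were -0.32 and 0.01. Called changes of at least 0.5 on the log2 scale numbered 11 with siRNA2, 9 with siRNA3 and 9 in MDA-MB-231, where 42.7%, 43.6% and 25.6% of all genes had one. The 4 that rose (SRSF5, SRSF6, SRSF8 and SRSF11) became 1 without MDA-MB-231 control replicate 1, and likewise without siRNA1 replicate 2. The 2 that rose with siRNA2 became 1 without A549 control replicate 2 or 3 or siRNA2 replicate 1 or 2, and the 2 that rose with siRNA3 became 1 without control replicate 1 or 3. The A549 comparisons share the same 3 control libraries.

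**Figure D1:**
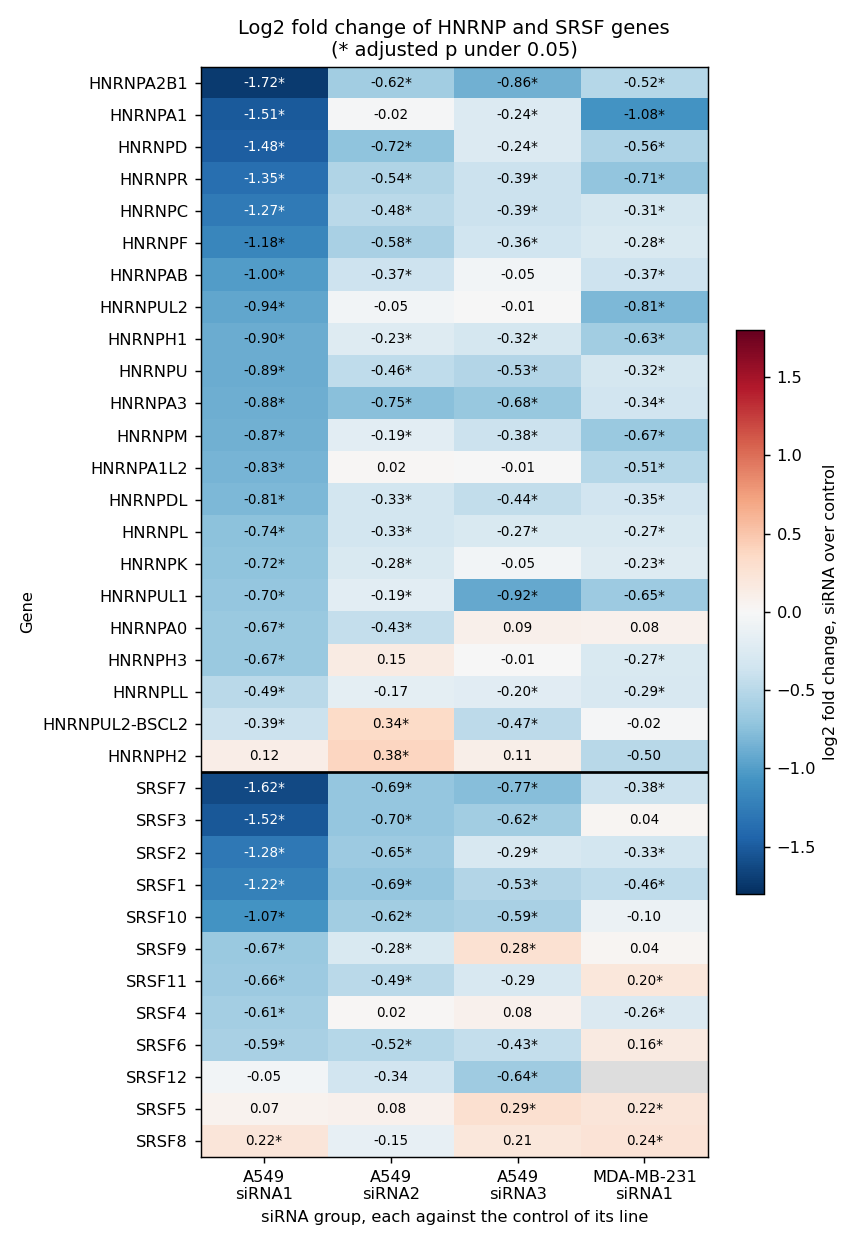
Log2 fold change of each HNRNP and SRSF member (rows) in each siRNA group over the control of its line (columns), with an asterisk on calls at an adjusted p under 0.05. The siRNA1 column of A549 is the darkest, with changes from -1.72 to 0.22, and the grey cell is SRSF12, which is not a member in MDA-MB-231.

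Calls were also counted by family. Among the 22 HNRNP genes, 21 fell with siRNA1, 15 with siRNA2 and 15 with siRNA3 in A549, and 19 fell with siRNA1 in MDA-MB-231. Among the SRSF genes, 9, 8 and 7 of 12 fell with siRNA1, siRNA2 and siRNA3 in A549, whereas 4 of 11 fell and 4 rose in MDA-MB-231. The median log2 fold changes of HNRNP and SRSF genes were -0.87 and -0.67 with siRNA1 in A549, -0.30 and -0.51 with siRNA2, -0.29 and -0.36 with siRNA3, and -0.36 and 0.04 with siRNA1 in MDA-MB-231. Over all genes tested, 32.8%, 28.4% and 30.4% fell with siRNA1, siRNA2 and siRNA3 in A549. In MDA-MB-231, 27.8% of all genes fell and 27.5% rose, and 4 of 11 SRSF genes in each direction is near those shares. No test compared the families.

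Summed over the family, HNRNP genes had 3936 to 4500 TPM with siRNA1, 6152 to 6745 with siRNA2 and 5353 to 6076 with siRNA3 in A549, against 7275 to 7551 in control libraries. In MDA-MB-231 the sum was 4861 to 4969 TPM with siRNA1, against 6529 to 6777 in control libraries. The siRNA libraries lay below the control libraries in each case. SRSF genes summed to 1110 to 1290 TPM with siRNA1, 1355 to 1511 with siRNA2 and 1489 to 1662 with siRNA3 in A549, against 1786 to 1824 in control libraries. In MDA-MB-231 they summed to 1772 to 1792 TPM with siRNA1, inside the 1727 to 1825 TPM of the control libraries.

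**Figure D2:**
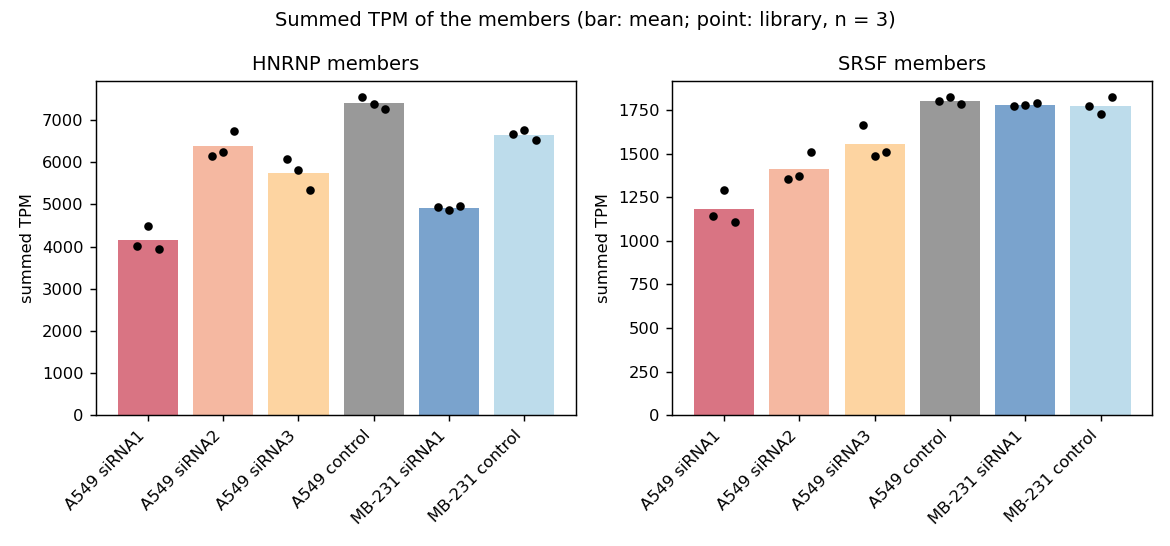
Summed TPM of the HNRNP members (left) and SRSF members (right) in each group, with a bar for the mean and a point for each of 3 libraries. HNRNP totals lie below control in every siRNA group, while the SRSF totals of MDA-MB-231 siRNA1 (1772 to 1792) lie inside the range of their control.

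Among the A and B type hnRNPs, HNRNPA2B1 fell furthest of all members with siRNA1 in A549. It had 628, 709 and 598 CPM in A549 siRNA1 libraries, 1330, 1370 and 1460 in siRNA2 libraries and 1260, 1180 and 1080 in siRNA3 libraries, against 2160, 2200 and 2020 CPM in control libraries. Each siRNA group lay wholly below control, with siRNA1 lowest. The log2 fold changes were -1.72 ± 0.09 (SE, adjusted p = 8.77e-10), -0.62 ± 0.08 (adjusted p = 2.67e-05) and -0.86 ± 0.08 (adjusted p = 1.38e-06) for siRNA1, siRNA2 and siRNA3. In MDA-MB-231 it had 867, 935 and 957 CPM with siRNA1, against 1360, 1400 and 1190 CPM in control libraries, again without overlap (-0.52 ± 0.06, adjusted p = 9.35e-05).

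HNRNPA1, the closest relative of HNRNPA2B1 and a regulator of telomeres and microRNA processing besides splicing, followed siRNA1 in both lines. It had 418, 473 and 381 CPM in A549 siRNA1 libraries, 1120, 1170 and 1290 with siRNA2 and 954, 967 and 1140 with siRNA3, against 1210, 1300 and 1120 CPM in control libraries. Only the siRNA1 libraries stood clear of control, at -1.51 ± 0.10 (adjusted p = 1.67e-08). With siRNA2 the change was -0.02 ± 0.10 (adjusted p = 0.896), and the siRNA3 call (-0.24 ± 0.10, adjusted p = 0.0467) was lost under several alternatives. In MDA-MB-231, HNRNPA1 had 455, 435 and 439 CPM with siRNA1, against 921, 962 and 932 CPM in control libraries. This was the largest fall of any member in that line (-1.08 ± 0.04, adjusted p = 5.40e-08). Its copies HNRNPA1L2 and the pseudogene HNRNPA1P10 can trade reads with it. HNRNPA1L2 fell with siRNA1 in A549 (-0.83 ± 0.10, adjusted p = 7.87e-06) and in MDA-MB-231 (-0.51 ± 0.08, adjusted p = 0.000555).

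HNRNPA3, another shuttling protein of this type, fell by a similar amount with each siRNA in A549. It had 423, 492 and 399 CPM with siRNA1, 441, 472 and 520 with siRNA2 and 531, 489 and 491 with siRNA3, against 811, 842 and 761 CPM in control libraries, and no siRNA library reached the lowest control library. The log2 fold changes were -0.88 ± 0.09, -0.75 ± 0.09 (adjusted p = 9.18e-06, the largest fall with siRNA2) and -0.68 ± 0.09, and neither siRNA1 against siRNA2 (-0.12 ± 0.09, adjusted p = 0.263) nor siRNA1 against siRNA3 (-0.20 ± 0.09, adjusted p = 0.0651) passed the test. HNRNPA0, which binds AU-rich elements in inflammatory transcripts, fell with siRNA1 (-0.67 ± 0.07) and siRNA2 (-0.43 ± 0.07) and was not called with siRNA3 (0.09 ± 0.07) or in MDA-MB-231 (0.08 ± 0.08).

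HNRNPD, also called AUF1, directs the decay of transcripts with AU-rich elements. It had 118, 133 and 116 CPM in A549 siRNA1 libraries, 200, 207 and 214 with siRNA2 and 263, 265 and 336 with siRNA3, against 341, 362 and 319 CPM in control libraries. The siRNA1 and siRNA2 libraries lay below all controls and 1 siRNA3 library lay among them. The changes were -1.48 ± 0.10 (adjusted p = 1.99e-08), -0.72 ± 0.10 (adjusted p = 3.09e-05) and -0.24 ± 0.10 (adjusted p = 0.0465), the last lost under several alternatives. In MDA-MB-231, HNRNPD fell by 0.56 ± 0.05 on the log2 scale. Its relatives HNRNPAB and HNRNPDL fell by 1.00 ± 0.08 and 0.81 ± 0.10 with siRNA1 in A549 and by 0.37 ± 0.06 and 0.35 ± 0.05 in MDA-MB-231.

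HNRNPC fell by 1.27 ± 0.08 with siRNA1, 0.48 ± 0.08 with siRNA2 and 0.39 ± 0.08 with siRNA3 in A549, and by 0.31 ± 0.05 in MDA-MB-231. HNRNPR, which stabilises transcripts and is close in sequence to SYNCRIP, fell in all 4 comparisons. It had 133, 160 and 134 CPM with siRNA1 in A549, against 363, 378 and 352 CPM in control libraries (-1.35 ± 0.10, adjusted p = 4.66e-08), and 193, 189 and 193 CPM with siRNA1 in MDA-MB-231, against 312, 327 and 302 CPM in control libraries (-0.71 ± 0.05, adjusted p = 1.49e-06). In both lines the groups were far apart relative to their spread. HNRNPK, HNRNPL, HNRNPLL and HNRNPM, which bind cytosine tracts, CA repeats (both HNRNPL and HNRNPLL) and GU-rich RNA, fell with siRNA1 by 0.72, 0.74, 0.49 and 0.87 on the log2 scale in A549 and by 0.23, 0.27, 0.29 and 0.67 in MDA-MB-231. HNRNPM had 208, 210 and 193 CPM in MDA-MB-231 siRNA1 libraries, against 325, 331 and 316 CPM in control libraries (-0.67 ± 0.05, adjusted p = 2.80e-06).

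The F and H type proteins bind runs of guanine. HNRNPF, HNRNPH1 and HNRNPH3 fell by 1.18 ± 0.06, 0.90 ± 0.09 and 0.67 ± 0.08 with siRNA1 in A549, and by 0.28 ± 0.05, 0.63 ± 0.04 and 0.27 ± 0.06 in MDA-MB-231. HNRNPH2, whose protein is nearly the same as that of HNRNPH1, did not follow. It had 80.9, 70.9 and 82.4 CPM with siRNA1, 98.1, 94.2 and 86.8 with siRNA2 and 80.2, 88.1 and 64.2 with siRNA3, against 70.1, 69.9 and 74.6 CPM in A549 control libraries, and rose with siRNA2 (0.38 ± 0.11, adjusted p = 0.00728). With siRNA3 the change was 0.11 ± 0.11 (adjusted p = 0.370), and 0.23 (adjusted p = 0.0249) without replicate 3. With siRNA1 it was 0.12 ± 0.11 (adjusted p = 0.306) on counts. In TPM the siRNA1 libraries, at 71.3 to 78.8, lay above the control libraries, at 54.8 to 61.9, and HNRNPH2 was called higher on log2 of TPM plus 1 (0.37, limma). In MDA-MB-231 it had 42.7, 39.5 and 32.5 CPM with siRNA1, against 61.9, 70.1 and 30.6 CPM in control libraries. Control replicate 3 lay below every siRNA1 library, and the change was not called (-0.50 ± 0.25, adjusted p = 0.109). Without that library it was -0.80 (adjusted p = 1.03e-06).

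Among the U type proteins, HNRNPU, a chromatin-bound scaffold protein, fell by 0.89 ± 0.07, 0.46 ± 0.07 and 0.53 ± 0.07 with siRNA1, siRNA2 and siRNA3 in A549 and by 0.32 ± 0.04 in MDA-MB-231. HNRNPUL1 and HNRNPUL2 act at DNA double-strand breaks, where they promote end resection and the recruitment of BLM. HNRNPUL1 had 387, 394 and 401 CPM with siRNA1, 560 ± 13.4 (SD, n = 3) with siRNA2 and 349, 350 and 313 with siRNA3, against 632, 616 and 667 CPM in A549 control libraries, so that all siRNA libraries lay below control and siRNA3 lay lowest. Its changes were -0.70 ± 0.07, -0.19 ± 0.07 (adjusted p = 0.0288, lost without A549 control replicate 1 or 3 or siRNA2 replicate 2 or 3) and -0.92 ± 0.07 (adjusted p = 1.06e-07, the largest fall with siRNA3).

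HNRNPUL2 split the siRNAs cleanly. It had 94.6, 98.5 and 91.3 CPM with siRNA1, 174, 174 and 180 with siRNA2 and 177, 186 and 181 with siRNA3, against 187, 184 and 174 CPM in A549 control libraries. In MDA-MB-231 it had 93.2, 99.7 and 98.6 CPM with siRNA1, against 175, 178 and 159 CPM in control libraries. The siRNA1 libraries of both lines lay well below control, while siRNA2 and siRNA3 overlapped it. The change with siRNA1 was -0.94 ± 0.07 (adjusted p = 2.50e-08) in A549 and -0.81 ± 0.06 (adjusted p = 2.49e-06) in MDA-MB-231, against -0.05 ± 0.07 (adjusted p = 0.549) with siRNA2 and -0.01 ± 0.07 (adjusted p = 0.952) with siRNA3. In MDA-MB-231, HNRNPUL1 fell too (304, 284 and 298 CPM with siRNA1, against 478, 480 and 436 CPM in control libraries, -0.65 ± 0.05, adjusted p = 5.09e-06). The readthrough transcript HNRNPUL2-BSCL2 is annotated as a long non-coding RNA but is counted among the HNRNP genes, because members were taken by name. It shares reads with HNRNPUL2, and by its name can share them with BSCL2, and is uncertain for that reason. Its level fell with siRNA1 (-0.39 ± 0.12) and siRNA3 (-0.47 ± 0.12) in A549. With siRNA2 it rose (135, 131 and 104 CPM, against 103, 91.5 and 98.8 CPM in control libraries, 0.34 ± 0.12, adjusted p = 0.0225), a call lost without A549 control replicate 2 or 3 or siRNA2 replicate 1 or 2 (0.26 to 0.34).

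**Figure D3:**
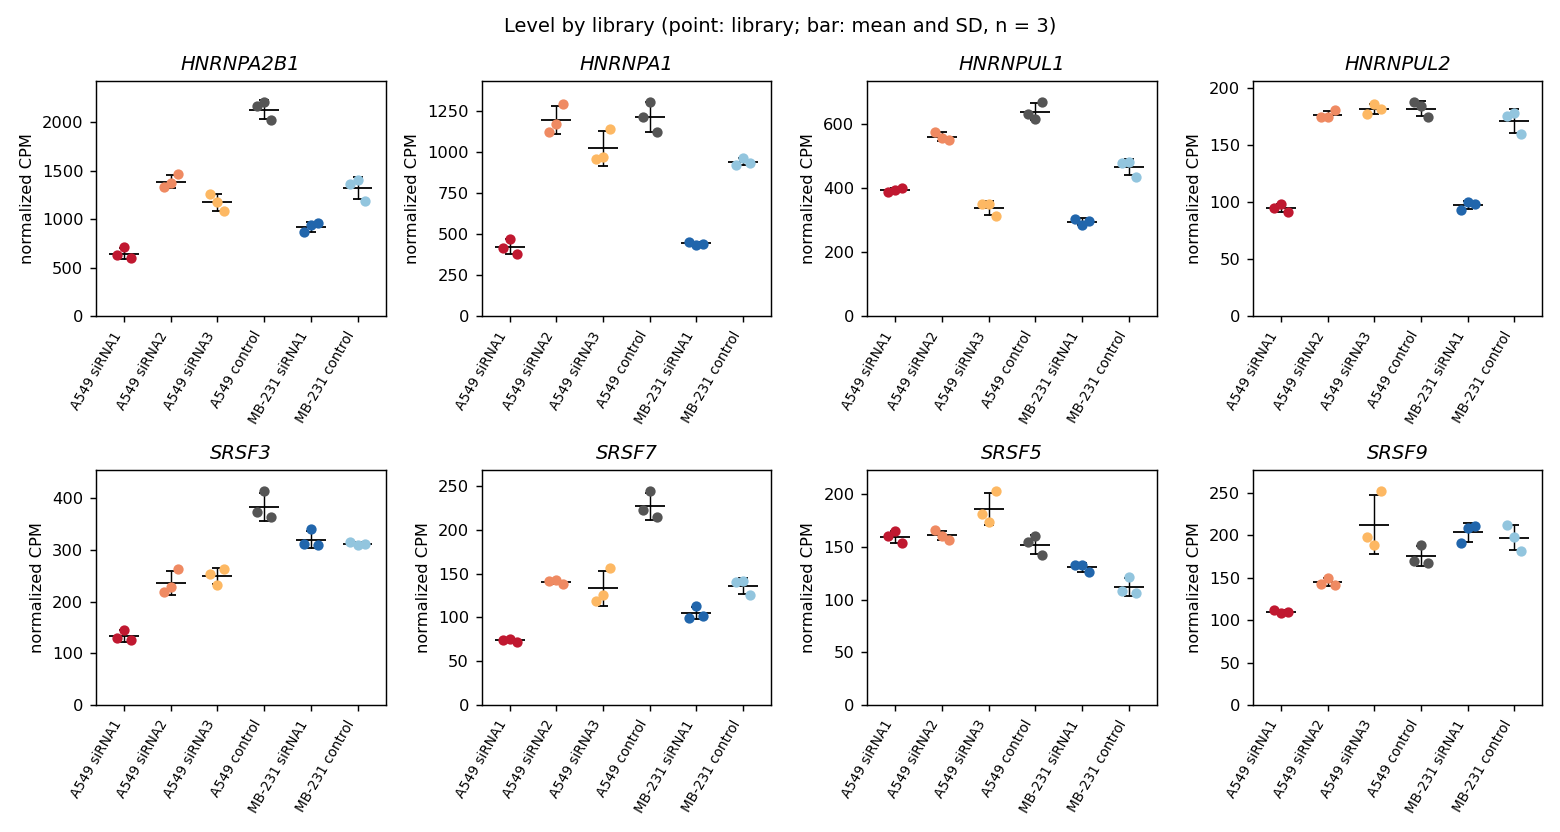
Normalized CPM of 8 members by group, with a point per library and a bar for the mean and SD of 3 libraries. Scaling factors were set within each line, so levels compare within a line. HNRNPUL2 is low in the siRNA1 libraries of both lines (91.3 to 98.5 and 93.2 to 99.7 CPM), and SRSF3 is low in A549 siRNA1 libraries (125 to 146 CPM) but not in MDA-MB-231 siRNA1 libraries (310 to 340 CPM).

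Among the SR proteins, SRSF3 and SRSF7, a related pair that couple splicing to polyadenylation and mRNA export, fell furthest with siRNA1 in A549. SRSF7 had 74.2, 75.5 and 71.7 CPM with siRNA1, 141, 143 and 138 with siRNA2 and 119, 125 and 156 with siRNA3, against 222, 244 and 214 CPM in control libraries. All 9 siRNA libraries lay below control. The changes were -1.62 ± 0.10 (adjusted p = 5.84e-09), -0.69 ± 0.10 (adjusted p = 3.51e-05) and -0.77 ± 0.10 (adjusted p = 1.32e-05). In MDA-MB-231, SRSF7 had 99.5, 113 and 102 CPM with siRNA1, against 140, 142 and 125 CPM in control libraries (-0.38 ± 0.07, adjusted p = 0.00109).

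SRSF3 had 129, 146 and 125 CPM with siRNA1, 218, 229 and 263 with siRNA2 and 254, 233 and 263 with siRNA3, against 373, 414 and 364 CPM in A549 control libraries. No siRNA library of A549 overlapped control, and the changes were -1.52 ± 0.10 (adjusted p = 7.84e-09), -0.70 ± 0.09 (adjusted p = 2.42e-05) and -0.62 ± 0.09 (adjusted p = 6.89e-05). In MDA-MB-231 it had 311, 340 and 310 CPM with siRNA1, against 315, 310 and 311 CPM in control libraries, and the groups overlapped (0.04 ± 0.05, adjusted p = 0.529).

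SRSF1 and SRSF2, the founding members of the family, fell in all 4 comparisons. SRSF1, a proto-oncogene that acts in constitutive and alternative splicing, had 252, 324 and 242 CPM with siRNA1, 351, 370 and 461 with siRNA2 and 490, 419 and 410 with siRNA3, against 624, 643 and 633 CPM in A549 control libraries. The control libraries lay above all others, and the changes were -1.22 ± 0.13 (adjusted p = 1.15e-06), -0.69 ± 0.12 (adjusted p = 0.000316) and -0.53 ± 0.12 (adjusted p = 0.00225). In MDA-MB-231, SRSF1 had 279, 273 and 274 CPM with siRNA1, against 383, 366 and 390 CPM in control libraries (-0.46 ± 0.04, adjusted p = 1.62e-05). SRSF2, mutated in myeloid cancers, changed by -1.28 ± 0.08, -0.65 ± 0.08 and -0.29 ± 0.08 in A549 and by -0.33 ± 0.07 in MDA-MB-231. Without siRNA3 replicate 2 the siRNA3 value was -0.20 (adjusted p = 0.0753).

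SRSF6, SRSF10 and SRSF11 fell with siRNA1 in A549 and did not fall in MDA-MB-231. SRSF10, a splicing repressor when it is dephosphorylated in mitosis or heat shock, changed by -1.07 ± 0.14, -0.62 ± 0.14 and -0.59 ± 0.14 with siRNA1, siRNA2 and siRNA3 in A549 and by -0.10 ± 0.07 (adjusted p = 0.278) in MDA-MB-231. SRSF6, which regulates splicing in skin and was described as an oncoprotein there, had 178, 205 and 171 CPM with siRNA1, against 274, 286 and 271 CPM in A549 control libraries (-0.59 ± 0.08), and 246, 258 and 242 CPM with siRNA1, against 220, 222 and 226 CPM in MDA-MB-231 control libraries (0.16 ± 0.05, adjusted p = 0.0137). The siRNA1 libraries were thus below control in one line and above it in the other. SRSF11, which binds the splicing factor U2AF, had 213, 221 and 240 CPM with siRNA1, against 191, 185 and 211 CPM in MDA-MB-231 control libraries (0.20 ± 0.06, adjusted p = 0.0247). The call on SRSF6 was lost without control replicate 1 or siRNA1 replicate 2 (0.15 and 0.13), and that on SRSF11 without control replicate 1 or 2 or siRNA1 replicate 2 or 3 (0.15 to 0.21).

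SRSF5, SRSF8 and SRSF12 did not fall with siRNA1. SRSF5, described early as a gene induced in regenerating rat liver, had 160, 165 and 154 CPM with siRNA1, 166, 160 and 157 with siRNA2 and 181, 174 and 203 with siRNA3, against 155, 160 and 142 CPM in A549 control libraries. Only the siRNA3 libraries lay above all controls (0.29 ± 0.08, adjusted p = 0.00582). In MDA-MB-231, SRSF5 had 133, 133 and 126 CPM with siRNA1, against 108, 122 and 106 CPM in control libraries (0.22 ± 0.06, adjusted p = 0.0143, lost without control replicate 1 or siRNA1 replicate 1 or 2, at 0.19 to 0.21). On the TPM scale SRSF5 was also called higher with siRNA1 (0.33) and siRNA2 (0.18) in A549.

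SRSF8 had 28.7, 31.1 and 27.2 CPM with siRNA1, against 25.8, 24.7 and 24.1 CPM in A549 control libraries, and 39.6, 40.7 and 39.1 CPM with siRNA1, against 34.1, 31.8 and 35.5 CPM in MDA-MB-231 control libraries (0.24 ± 0.06, adjusted p = 0.00881). SRSF12 had 3.43, 2.80 and 2.62 CPM with siRNA3, against 4.55, 4.61 and 4.67 CPM in A549 control libraries (-0.64 ± 0.18, adjusted p = 0.00649), while its siRNA1 libraries (3.68, 5.81 and 3.87 CPM) lay on both sides of control. SRSF9 and SRSF4 fell with siRNA1 in A549 by 0.67 ± 0.10 and 0.61 ± 0.08. SRSF4 fell in MDA-MB-231 as well (-0.26 ± 0.06), and SRSF9 did not (0.04 ± 0.07, adjusted p = 0.588). With siRNA3, SRSF9 had 198, 188 and 252 CPM, against 170, 189 and 167 CPM in control libraries. Its rise (0.28 ± 0.10, adjusted p = 0.0257) rests in part on replicate 3, without which it was 0.14 (adjusted p = 0.0802), and it was also lost without control replicate 1 or 3.

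Compared with each other in A549, siRNA1 gave lower levels than siRNA2 for 27 of 34 members, where 56.0% of all genes were called (27.4% lower, 28.6% higher), and a higher level for SRSF8 (0.37 ± 0.09). Against siRNA3, siRNA1 gave lower levels for 27 members, where 66.6% of all genes were called (32.3% lower, 34.4% higher), and higher levels for HNRNPUL1 and SRSF12. That count of 2 was 1 without siRNA1 replicate 2 and 0 without siRNA3 replicate 2. HNRNPA1 differed most, at -1.49 ± 0.10 against siRNA2 and -1.26 ± 0.10 against siRNA3. Between siRNA2 and siRNA3, 9 members were lower and 5 higher with siRNA2, where 59.0% of all genes were called (28.9% lower, 30.1% higher), and HNRNPUL2-BSCL2 (0.80 ± 0.12) and HNRNPUL1 (0.73 ± 0.07) had the largest differences. The 5 became 2 without siRNA2 replicate 2 and 3 without siRNA3 replicate 2, and on the TPM scale 5 members were lower and 8 higher. Called differences of at least 0.5 on the log2 scale numbered 19 for siRNA1 against siRNA2, 20 for siRNA1 against siRNA3 and 4 for siRNA2 against siRNA3, where 37.5%, 48.9% and 40.8% of all genes had one.

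With siRNA1, 23 of the 33 members shared by both lines fell in both (69.7%, 19 HNRNP and 4 SRSF genes), as did 16.1% of the 14300 genes tested in both lines. HNRNPA1L2, HNRNPH3, HNRNPUL2 and SRSF4 are the 4 of them that did not fall with siRNA2 or siRNA3 (12.1% of the shared members, where 3.66% of all genes had this pattern). Conversely 7 members fell with siRNA1 in A549 and not in MDA-MB-231, namely HNRNPA0, HNRNPUL2-BSCL2, SRSF3, SRSF6, SRSF9, SRSF10 and SRSF11. They were 21.2% of the shared members, where 18.5% of all genes did so, and 23.3% of the members that fell in A549, where 53.5% of all genes that fell there did not fall in MDA-MB-231. Some calls of a fall in A549 were lost without some library. These were the siRNA2 calls of HNRNPDL, HNRNPH1, HNRNPUL1 and SRSF9 and the siRNA3 calls of HNRNPA1, HNRNPD, HNRNPL, HNRNPLL and SRSF2.

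An interaction term tested whether siRNA1 acted differently in A549 and MDA-MB-231. The effect was more negative in A549 than in MDA-MB-231 for 25 of 33 members, where 57.8% of all 16736 genes tested were called (27.0% more negative, 30.8% more positive), and by at least 0.5 for 16 of them, where 44.7% of all genes were. The other 8 members, HNRNPA1L2, HNRNPH2, HNRNPLL, HNRNPM, HNRNPUL1, HNRNPUL2, SRSF5 and SRSF8, were not called. The median interaction was -0.49 over the members. SRSF3 differed most (-1.52 ± 0.10, adjusted p = 2.75e-09), followed by SRSF7 (-1.20 ± 0.10) and HNRNPA2B1 (-1.16 ± 0.10). HNRNPUL1 and HNRNPUL2 had interactions of 0.00 ± 0.08 (adjusted p = 1) and -0.08 ± 0.08 (adjusted p = 0.425), with falls of 0.70 ± 0.07 and 0.94 ± 0.07 in A549 and of 0.65 ± 0.05 and 0.81 ± 0.06 in MDA-MB-231. The remaining BLM was 1.51% in A549 and 14.7% in MDA-MB-231, so the lines differ in the extent of knockdown too, and its part in these differences was not tested.

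**Figure D4:**
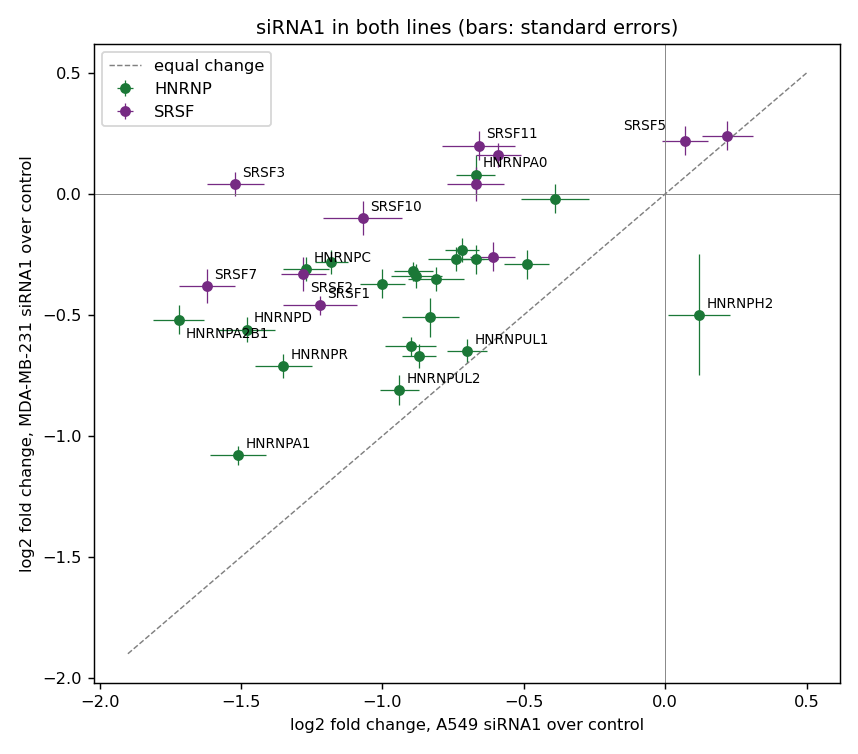
Log2 fold change of each shared member with siRNA1 over control in A549 (x axis) and MDA-MB-231 (y axis), with standard errors as bars and a dashed line of equal change. Most members lie above the line, with SRSF3 farthest (-1.52 in A549, 0.04 in MDA-MB-231), and HNRNPUL1 and HNRNPUL2 lie near it.

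Between the control groups, A549 had higher CPM than MDA-MB-231 for 20 of 33 members and lower CPM for 5, where 40.7% and 41.3% of the 15816 genes tested were (82.0% in all), and 11 differed by at least 0.5, where 64.4% of all genes did. On the TPM scale the split was 13 higher and 10 lower. HNRNPF had 448, 464 and 460 CPM within A549 control libraries, against 258, 257 and 239 CPM within MDA-MB-231 control libraries, each scaled within its own line, and the test in a joint fit of the 6 libraries gave 0.92 ± 0.06 (adjusted p = 9.43e-09). HNRNPL (0.92 ± 0.07), SRSF1 (0.79 ± 0.06), SRSF7 (0.79 ± 0.07) and SRSF2 (0.75 ± 0.08) were also higher in A549 control libraries, while SRSF4 (-0.76 ± 0.07) and SRSF10 (-0.63 ± 0.08) were lower. SRSF12 was nearly confined to A549 by the way members were chosen, and its difference was not tested.

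The files also give for each gene a transcript length averaged over its isoforms by their estimated abundance. It moves when the estimated mix of isoforms moves, and whether the mix itself moved was not tested. It could be tested for 28 members in each line. With siRNA1 in A549, 9 members became longer and 3 shorter (limma, adjusted p under 0.05), where 9.59% and 3.89% of 9342 genes did (13.5% in all). With siRNA2, 4 became longer and 3 shorter, where 4.60% and 3.31% of genes did (7.91% in all), and with siRNA3 6 and 2, where 4.51% and 3.65% did (8.16% in all). In MDA-MB-231 SRSF2 alone was called, as longer, where 0.203% of 8879 genes were (0.462% called in all). Counts moved when libraries were left out. Without siRNA1 replicate 2, 6 members were shorter with siRNA1, and without control replicate 2 or 3, 3 were longer with siRNA3. The SRSF2 call was lost in 5 of the 6 fits that leave out 1 MDA-MB-231 library.

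SRSF3 lengthened with each siRNA in A549. Its mean length was 3205, 3203 and 3212 bases with siRNA1, 3182, 3184 and 3182 with siRNA2 and 3182, 3180 and 3186 with siRNA3, against 3152, 3150 and 3151 bases in control libraries. No siRNA group overlapped control, while siRNA2 and siRNA3 overlapped each other. With siRNA1 it was 1.77% longer than control (limma, adjusted p = 2.62e-06), with siRNA2 1.01% (adjusted p = 0.000124) and with siRNA3 1.02% (adjusted p = 9.20e-05). In MDA-MB-231 it was 3313 ± 17.0 bases with siRNA1, against 3268 ± 11.9 in control libraries (SD, n = 3), and was not called (adjusted p = 0.250). The files list 2 SRSF3 transcripts. In GENCODE the transcripts matched to them through RefSeq are a coding one of 4222 bases and one of 1095 bases marked for nonsense-mediated decay. Of these GENCODE transcripts, the coding one is the longer. The annotation behind the deposited lengths is not given, and transcript lengths in it can differ.

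SRSF6 and HNRNPD lengthened and HNRNPR shortened with all 3 siRNAs. SRSF6 averaged 3814 ± 5.66, 3838 ± 4.47 and 3848 ± 1.51 bases with siRNA1, siRNA2 and siRNA3, against 3789 ± 3.41 in A549 control libraries. Its 2 transcripts likewise match a coding one of 4325 bases and a decay-marked one of 1680 bases in GENCODE, with the same limit. HNRNPD averaged 2179 ± 1.97, 2173 ± 2.17 and 2182 ± 2.39 bases, against 2159 ± 1.35 in control libraries. HNRNPR averaged 7738 ± 4.65, 7751 ± 6.66 and 7739 ± 3.36 bases, against 7781 ± 7.03 in control libraries. These shifts are small: the largest of the 3 genes in size was 1.57% (SRSF6 with siRNA3, adjusted p = 2.97e-05). SRSF5, which did not fall, shortened with siRNA1 (-0.255%) and siRNA2 (-0.456%). In MDA-MB-231, SRSF2 had 2311, 2316 and 2334 bases with siRNA1, against 2194, 2208 and 2199 bases in control libraries, a difference of 120 bases or 5.46% (adjusted p = 0.0204). With siRNA2 in A549, SRSF2 was instead called shorter (2207 against 2251 bases, -1.96%, limma, adjusted p = 0.0477). Directions also differed between siRNAs for HNRNPC, which was longer with siRNA2 (0.124%) and shorter with siRNA1 (-0.182%) and siRNA3 (-0.273%) in A549.

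**Figure D5:**
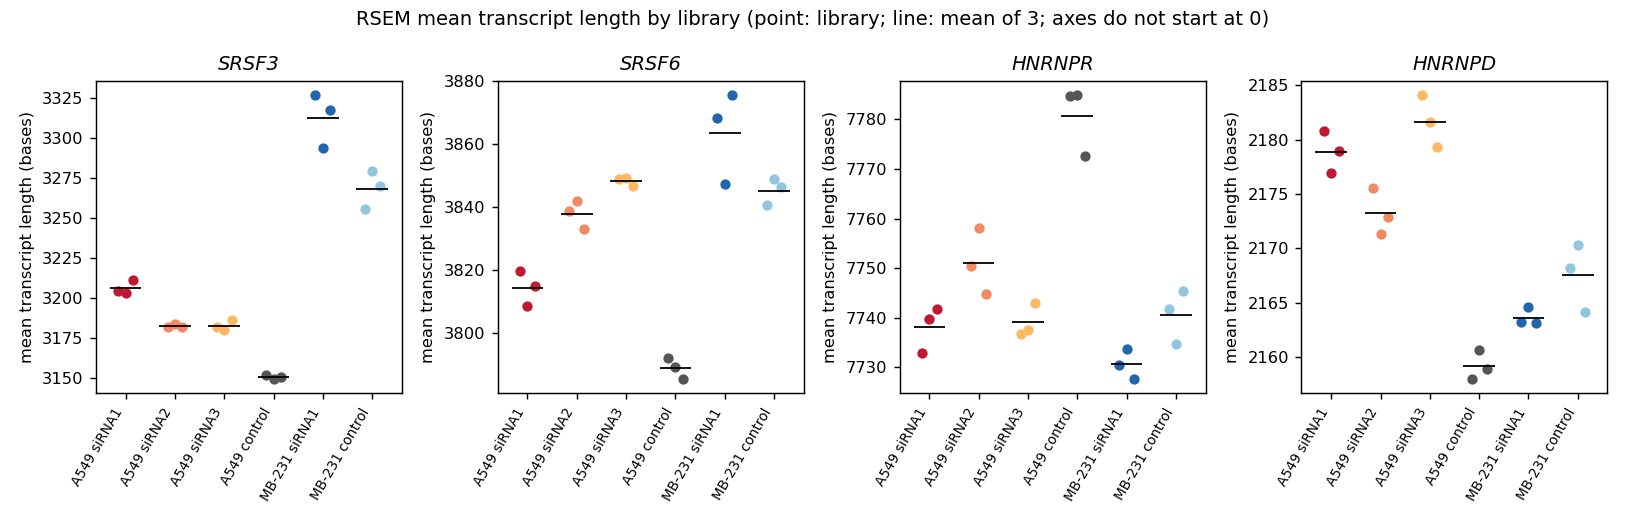
Abundance-weighted mean transcript length, in bases, of SRSF3, SRSF6, HNRNPR and HNRNPD by group, with a point per library and a line for the mean of 3 (axes do not start at 0). SRSF3 lies at 3180 to 3212 bases in A549 siRNA libraries and at 3150 to 3152 bases in A549 control libraries.

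The wider splicing machinery was described with lists chosen with earlier results of these data known, so counts stand beside the background given above and carry no test of the list. Of 41 core spliceosome genes, 34 fell with siRNA1 in A549 and 33 in MDA-MB-231, with medians of -0.72 and -0.35, and the others were not called. With siRNA2, 28 fell and 1 rose, and with siRNA3, 16 fell and 7 rose. SF3A3, a subunit of the U2 snRNP complex that recognises the branch point, fell by 1.99 ± 0.08 with siRNA1 in A549 and by 2.13 ± 0.05 in MDA-MB-231, against -0.56 ± 0.07 with siRNA2 and 0.07 ± 0.07 with siRNA3. DHX15, the helicase that takes spliceosomes apart, changed by -1.65 ± 0.07, -1.12 ± 0.07 and -0.42 ± 0.07 with siRNA1, siRNA2 and siRNA3 in A549 and by -0.58 ± 0.04 in MDA-MB-231.

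Of 7 hnRNPs known under other names, 6 fell with siRNA1, 5 with siRNA2 and 3 with siRNA3 in A549, and 4 in MDA-MB-231. RBMX, an X-linked hnRNP that binds nascent transcripts, changed by -1.22 ± 0.07, -0.24 ± 0.07 and -0.37 ± 0.07 in A549 and by -0.74 ± 0.05 in MDA-MB-231. PCBP1, a cytosine-binding protein with no introns in its gene, fell furthest with siRNA2 (-2.22 ± 0.09). RALY, with siRNA1 (0.29 ± 0.08), and PCBP2, with siRNA3 (0.63 ± 0.09), were the 2 that rose.

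Other splicing regulators were mixed: 22 of 33 fell and 2 rose with siRNA1, 13 fell and 5 rose with siRNA2, and 16 fell and 5 rose with siRNA3 in A549, while 15 of 35 fell and 5 rose in MDA-MB-231. PSPC1, a paraspeckle protein, changed by -1.56 ± 0.08, -1.02 ± 0.08 and -1.41 ± 0.08 in A549 and by -0.79 ± 0.05 in MDA-MB-231. RBM5, a regulator of apoptosis genes, rose by 1.06 ± 0.07 with siRNA3, and CIRBP, induced by cold, by 1.05 ± 0.07 with siRNA2. Changes in this list, called or not, ran from -1.56 to 1.31 with siRNA1, -1.28 to 4.26 with siRNA2 and -1.78 to 1.40 with siRNA3 in A549. In MDA-MB-231 they ran from -0.81 to 0.36.

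Of the 10 kinases and import receptors that act on SR proteins, 5 fell and 1 rose with siRNA1, 4 fell with siRNA2 and 3 fell and 3 rose with siRNA3 in A549, and 5 fell and 1 rose in MDA-MB-231. SRPK1, which phosphorylates SR proteins in the cytoplasm, changed by -0.89 ± 0.07, -0.65 ± 0.07 and -0.49 ± 0.07 in A549 and by -0.25 ± 0.05 in MDA-MB-231. CLK1, which phosphorylates them in the nucleus, rose with siRNA3 (0.69 ± 0.11) and in MDA-MB-231 (0.44 ± 0.08). Among 15 genes of nonsense-mediated decay, 8 fell and 2 rose with siRNA1, 8 and 2 with siRNA2, and 6 and 3 with siRNA3 in A549, and 3 fell and 4 rose in MDA-MB-231. EIF4A3, the helicase of the exon junction complex, fell by 1.98 ± 0.12 with siRNA1 in A549 and by 1.18 ± 0.05 in MDA-MB-231.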

How the data were processed

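Values in the files are expected counts, TPM and an isoform-weighted transcript length in bases for 27968 genes. The authors made the expected counts with RSEM on hg19, per the submitters' processing notes, and RSEM shares reads between similar transcripts, so between 10.2% and 11.8% of values were not whole. The deposited TPM values, per the file headers, correct for transcript length and sum to the same total in each library. The deposited length values, per the file headers the mean over isoforms weighted by abundance, are in bases. Aligner, RSEM version and annotation are not given in the sources. Deposited FPKM values were not used here.

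Expected counts were rounded and tested with edgeR 4.0.16 in R 4.3.3 (TMM, filterByExpr with a minimum count of 10 and a minimum total of 15, quasi-likelihood F test with group means), adjusted by Benjamini-Hochberg over all genes and called under 0.05. The 12 A549 libraries shared 1 fit and the 6 MDA-MB-231 libraries another, the interaction used the 12 libraries of siRNA1 and control, and the control comparison the 6 control libraries. Log2 fold changes carry standard errors (SE). CPM used the TMM factors of the line. Lengths were tested with limma 3.58.1 on log2 bases. The scripts were tested on simulated data. Members and lists were chosen with earlier results of these data known. In each siRNA against control comparison, up to 5 called members with the highest and 5 with the lowest change are given with library values, and up to 4 genes per list and comparison by smallest adjusted p may be named. Some results under this naming rule are left out. Alternatives were DESeq2 1.42.0 (size factors, Wald test), 1 CPM in 3 libraries or no filter, TPM plus 1 or plus 0.1 with limma, only the groups compared, a minimum log2 change of 0.5, a replicate block, robust moderation (lengths), and each library left out.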

Additional observations from a re-analysis of the deposited data

Results flagged for a closer look

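The siRNA1 effect differed between A549 and MDA-MB-231 for 25 of the 33 shared members by the interaction test (edgeR, 3 libraries per group), where 27.0% of all genes differed in that direction. The value is the log2 fold change in A549 minus that in MDA-MB-231. Among HNRNP genes it was -1.16 for HNRNPA2B1, -0.91 for HNRNPC, -0.87 for HNRNPD, -0.85 for HNRNPF, -0.70 for HNRNPA0, -0.60 for HNRNPR, -0.58 for HNRNPAB, -0.53 for HNRNPU and -0.49 for HNRNPA3. It was -0.44 for HNRNPK, -0.43 for HNRNPL, -0.41 for HNRNPDL, -0.38 for HNRNPA1, -0.35 for HNRNPH3, -0.32 for HNRNPUL2-BSCL2 and -0.23 for HNRNPH1. Among SRSF genes it was -1.52 for SRSF3, -1.20 for SRSF7, -0.93 for SRSF10, -0.91 for SRSF2, -0.82 for SRSF11, -0.71 for SRSF1, -0.70 for SRSF6, -0.67 for SRSF9 and -0.30 for SRSF4. For 5 of these the effects had opposite signs: -1.52 for SRSF3, -0.67 for HNRNPA0, -0.67 for SRSF9, -0.66 for SRSF11 and -0.59 for SRSF6 in A549, against 0.04, 0.08, 0.04, 0.20 and 0.16 in MDA-MB-231. In MDA-MB-231 the first 3 were not called, and the calls on SRSF11 and SRSF6 were lost in 4 and 2 of the 6 fits that leave out 1 library.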

How the results depend on the processing

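No named member changed direction while called. Of single-gene results, 65 lost and 9 gained a call when 1 library was left out and 1348 were on the same side of the threshold. Under the other settings 84 lost and 17 gained a call and 1081 were on the same side. Counting error is largest for SRSF12 (2.62 to 5.81 CPM in A549), the least abundant member. Log2 changes in TPM plus 1 had an all-gene median of 0.23 with siRNA1 in A549, against 0.09 on TMM-scaled counts, and a member median of -0.55, against -0.85. Counts that moved are given next, and the cause was not tested unless the setting itself removes genes or samples.

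With a minimum log2 change of 0.5, the A549 comparisons had 0 higher with siRNA1, 0 higher and 11 lower with siRNA2, and 0 higher and 9 lower with siRNA3, and MDA-MB-231 had 0 higher and 9 lower. Between siRNAs that setting gave 0 higher for siRNA1 against siRNA2, 1 higher for siRNA1 against siRNA3, and 2 higher and 2 lower for siRNA2 against siRNA3. It gave 16 more negative in the interaction, and 9 higher and 2 lower for A549 against MDA-MB-231 controls. On TPM with either pseudocount, 3 were higher with siRNA1, 4 with siRNA2, 2 for siRNA1 against siRNA2, 8 higher and 5 lower for siRNA2 against siRNA3, and 13 higher and 10 lower between controls. SRSF8, the 1 member higher with siRNA1, was lost (0 higher) with DESeq2 size factors, the DESeq2 Wald test, the 1 CPM filter, no filter, only the groups compared and the replicate block. No filter and only the groups compared each gave 1 higher for siRNA1 against siRNA3 and 2 for siRNA2 against siRNA3. No filter gave 1 in the interaction, and only the groups compared gave 1 higher with siRNA3.

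The labels do not say that replicate numbers pair libraries. Between A549 groups and between the MDA-MB-231 groups, deviations of libraries with the same number correlated at -0.58 to 0.336. This cannot decide the question, because the deviations within a group depend on each other. With the replicate number as a block, 30 members were lower with siRNA1, 21 with siRNA2 and 19 with siRNA3, and 3 were longer with siRNA3 and 0 longer in MDA-MB-231.

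Leaving out each library gave 0 to 1 higher and 30 lower with siRNA1, 1 to 2 and 20 to 24 with siRNA2, 1 to 3 and 17 to 23 with siRNA3, and 1 to 4 and 23 to 24 in MDA-MB-231. It gave 1 higher and 26 to 28 lower for siRNA1 against siRNA2, 0 to 2 and 25 to 29 for siRNA1 against siRNA3, 2 to 6 and 8 to 9 for siRNA2 against siRNA3, 0 to 1 and 23 to 28 in the interaction, and 19 to 22 and 4 to 6 between controls. Lengths gave 6 to 10 longer and 3 to 6 shorter with siRNA1, 3 to 5 and 2 to 3 with siRNA2, 3 to 6 and 2 with siRNA3, and 0 to 1 and 0 in MDA-MB-231.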

Other observations

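The pseudogene HNRNPA1P10, which was left out of the members because its reads can come from HNRNPA1, had 80.0 ± 30.7 CPM with siRNA1, 275 ± 77.5 with siRNA2 and 174 ± 47.2 with siRNA3, against 227 ± 19.3 CPM in A549 control libraries, and 92.3 ± 21.6 CPM with siRNA1, against 187 ± 64.0 CPM in MDA-MB-231 control libraries (SD, n = 3). Its log2 fold change with siRNA1 was -1.50 ± 0.28 in A549 and -1.02 ± 0.24 in MDA-MB-231, beside -1.51 ± 0.10 and -1.08 ± 0.04 for HNRNPA1. A second pseudogene, HNRNPA1P33, was far lower, with 5.88 ± 0.586 CPM with siRNA1, 4.32 ± 0.0965 with siRNA2 and 5.32 ± 0.798 with siRNA3, against 6.03 ± 0.591 CPM in A549 control libraries, and 0.464 ± 0.0663 CPM with siRNA1, against 1.15 ± 0.209 CPM in MDA-MB-231 control libraries. Its log2 fold change with siRNA1 was -0.04 ± 0.12 in A549 (edgeR, adjusted p = 0.805) and -1.30 ± 0.24 in MDA-MB-231 (adjusted p = 0.00142).

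Summed marker levels differed between the groups of both lines, and their part in the members' results was not tested. In A549 the 5 epithelial markers summed to 13100 to 15000 TPM with siRNA1, 6690 to 6940 with siRNA2 and 5140 to 5470 with siRNA3, against 5120 to 5360 TPM in control libraries. The siRNA3 sum holds members that differ, since CDH1 changed by -3.57 ± 0.12 and KRT19 by 0.88 ± 0.10. The 3 mesenchymal markers summed to 1010 to 1020, 1190 to 1270 and 1790 to 1860 TPM with siRNA1, siRNA2 and siRNA3, against 833 to 902 TPM in control libraries. With siRNA1, 1 of the 3 rose and 1 fell (log2 fold changes of -0.73 to 0.73). With siRNA2, 2 rose and 1 fell (-0.96 to 0.66). With siRNA3, CDH2 and VIM rose by 1.32 ± 0.08 and 1.11 ± 0.09.

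Markers of other cell types were lower in level. In A549 the 5 fibroblast markers summed to 10.0 to 11.8 TPM with siRNA1, 12.2 to 13.5 with siRNA2 and 5.33 to 9.09 with siRNA3, against 1.42 to 1.55 TPM in control libraries. The 4 luminal breast markers summed to 32.9 to 37.4, 38.0 to 46.2 and 19.5 to 22.7 TPM, against 15.9 to 17.6 TPM in control libraries. The 5 alveolar type 2 markers summed to 1.24 to 1.89, 1.15 to 1.45 and 0.79 to 1.15 TPM, against 0.45 to 0.63 TPM. The 4 leukocyte markers, of which CD14 alone exceeded 1 TPM, summed to 3.74 to 6.15, 6.73 to 8.57 and 1.62 to 1.91 TPM, against 4.30 to 5.89 TPM.

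In MDA-MB-231 the mesenchymal sum was 1870 to 1960 TPM with siRNA1, against 2800 to 2850 TPM in control libraries, and the epithelial sum 1460 to 1610, against 1670 to 1980 TPM. The fibroblast sum was 8.90 to 9.67 TPM with siRNA1, against 6.89 to 7.59 TPM in control libraries, and the leukocyte sum 11.9 to 13.4, against 8.58 to 9.37 TPM. The fibroblast sum holds members that differ: of 4 markers tested, 1 rose and 2 fell (log2 fold changes of -1.19 to 0.62). The luminal breast sum was 3.23 to 3.53 TPM with siRNA1, against 4.73 to 5.81 TPM in control libraries, and the alveolar type 2 sum 2.48 to 3.45, against 6.89 to 7.74 TPM.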
